A study of Mus musculus with 8 samples.

Results

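The 36 genes described here drive DNA replication and mitosis. They were chosen by name from a list of proliferation genes: 10 of DNA replication and S phase (Mcm2 to Mcm7, Pcna, Rrm1, Rrm2 and Tyms), 4 further replication genes (Tk1, Gins2, Cdc6 and Cdt1) and 22 of mitosis. A gene was measured if a probe for one of its RefSeq transcripts stood well above background on 4 or more of the 8 arrays. All 36 passed, with 53 of their 54 probes on the array, and they are 36 of the 23105 features tested. The probe used for each gene was well above background on all 8 arrays.

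RNA came from femoral growth plate cartilage of 12-day-old littermate mice labelled Cre (4 mice) or CreTW (4 mice), with 1 array for each mouse. The labels do not spell the genotypes out. As background on this study, both genotypes carry Cre recombinase under control of the type II collagen (Col2a1) promoter, which is active in chondrocytes. CreTW mice in addition carry a Cre-activated transgene for a dominant-negative form of Twinkle, the helicase of mitochondrial DNA, so cells of the dissected tissue that never expressed Cre are not direct targets. The title of the series ties the inactivated respiratory chain to growth retardation through cartilage.

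Bones lengthen because chondrocytes in the proliferative zone of the growth plate divide in columns and then enlarge. Genes for replication are transcribed as a cell passes from G1 into S phase, and genes for mitosis follow in G2, so the RNA of both sets is a common readout of how many cells are cycling. Other dividing cells contribute to it as well, and the marrow and the front where bone invades cartilage are rich in them.

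Levels are log2 signals relative to the array's 75th percentile (0 is that percentile), and differences are CreTW minus Cre on the log2 scale with the standard error (SE) of the limma fit over 4 and 4 arrays. Adjusted p-values are Benjamini-Hochberg values over all 23105 features. The share of the 56605 probes well above background was 45.4% to 57.9% per array, and arrays correlated at a mean r of 0.9858 within and 0.9817 between genotypes. Cartilage markers were strong on every array, with Col2a1 between 9.66 and 10.18. Cre replicate 4 was the lowest Cre array in most of the genes below, so the counts and medians over the 36 genes are given with and without it. On simulated arrays of these 23105 features, the fit recovered 1.33% of features shifted by 0.3, 15.3% of those shifted by 0.5 and 62% of those shifted by 1, with 5.92% false among its calls. The simulated noise was independent between features, unlike that of genes measured on the same mice, so these rates need not hold for the real arrays.

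The 36 cell cycle genes lay lower in CreTW than in Cre cartilage by small amounts, and none of them passed the test. Their median difference was -0.27, against -0.008 over all features, and their differences ran from -0.42 for Plk1 to 0.00 for Gins2. All 36 estimates were negative (Gins2 at -0.001), where 51.6% of all features were, and 35 stayed so after normexp background correction. By limma with Benjamini-Hochberg adjustment, 0 of 36 had an adjusted p under 0.05, where 0.346% of all features did and 0.117% did with a lower level in CreTW. The lowest adjusted p of a member was 0.259, for Cdc20. Without adjustment 16 members had p under 0.05, all of them lower in CreTW, against 4.8% of all features. In whole tissue, fewer cells of a type and less RNA per cell cannot be told apart.

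**Figure D1:**
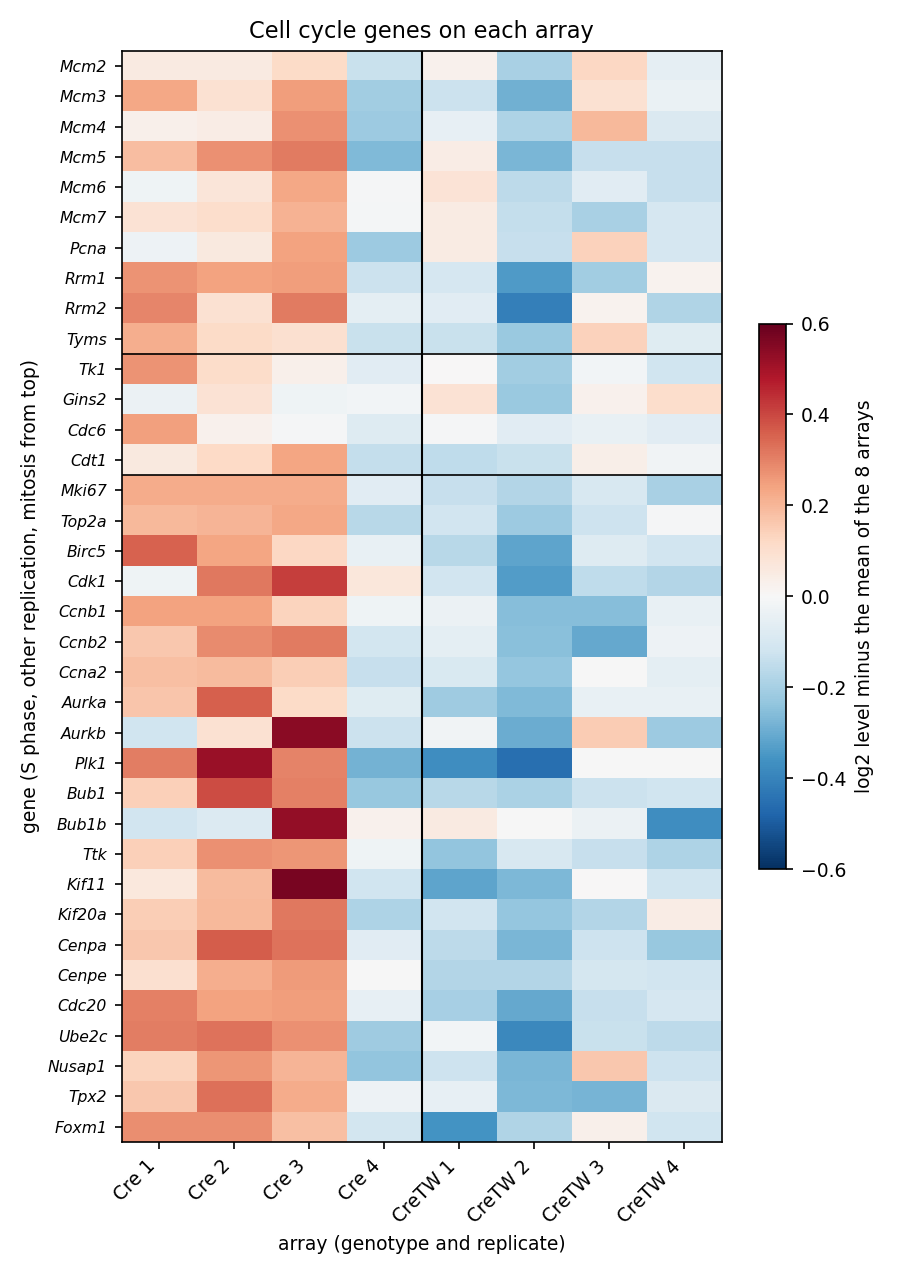
Level of each of the 36 genes (rows) on each of the 8 arrays (columns), as the log2 level minus that gene's mean over the arrays; red is above and blue below the mean. Cre replicates 1 to 3 are red in most rows, while Cre replicate 4 is pale or blue like the 4 CreTW arrays, and CreTW replicate 2 is the lowest array in 22 of 36 genes.

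The arrays did not split cleanly by genotype. Cre replicate 3 was the highest array in 16 genes, against 8.19% of all features. Cre replicate 2 was highest in 10 (13.3%), Cre replicate 1 in 8 (11.2%) and Cre replicate 4 in 0 (18.5%). Cre replicate 4 was the lowest of the 4 Cre arrays in 32 of 36 genes, as it was for 24.9% of all features. In 27 of the 36 genes it lay at or below the highest CreTW array, a count for which no share over all features was computed. The lowest array of all was CreTW replicate 2 in 22 genes, against 19% of all features. Without Cre replicate 4 the median difference was -0.35 and 25 members had an unadjusted p under 0.05 in the direction of lower in CreTW, against 7.46% of all features. That fit called 0 of 36 members after adjustment (lowest adjusted p by limma 0.103), where it called 0.294% of all features. Leaving out other arrays also moved the count of unadjusted p-values from 16. It was 9 without Cre replicate 3, 9 without CreTW replicate 2, 10 without Cre replicate 1 and 10 without Cre replicate 2. Shares of all features were not computed for these fits, so a move of the members alone cannot be told from one of all features.

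Mitotic genes held most of the difference. Their median was -0.31, with all 22 estimates between -0.42 and -0.18, and 14 of the 22 had an unadjusted p under 0.05. In 9 members every CreTW array lay below every Cre array, where 2.81% of all features did so, and all 9 were mitotic: Cdk1, Ccnb1, Cdc20, Mki67, Birc5, Ttk, Cenpa, Cenpe and Tpx2. With Cre replicate 4 set aside, 27 members were separated in this way, 19 of them mitotic, against 7.36% of all features.

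Cdk1 is the kinase that starts mitosis, and cyclins A2, B1 and B2 are its partners. Cdk1 was at 0.09, 0.43, 0.53 and 0.18 in Cre replicates 1 to 4 and at 0.00, -0.22, -0.04 and -0.06 in CreTW replicates 1 to 4. Its highest CreTW value was thus just under its lowest Cre value, here Cre replicate 1. The difference was -0.39 ± 0.12 (SE), 1.31-fold lower in CreTW, with an adjusted p of 0.286 by limma. Ccnb1, the main mitotic cyclin, was at 2.31, 2.31, 2.20 and 2.04 in Cre and at 2.03, 1.81, 1.81 and 2.02 in CreTW. Here Cre replicate 4 lay next to the top of the CreTW range without overlapping it, and the difference was -0.30 ± 0.10. A dim further probe of Ccnb1 went the other way, at 0.15, while its remaining probe was also negative. Ccnb2 differed by -0.33 ± 0.12 and Ccna2, which acts in both S phase and G2, by -0.19 ± 0.10. In both genes the genotypes overlapped through Cre replicate 4. A dimmer probe of Ccna2 gave -0.30.

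Cdc20 and Ube2c act in the anaphase-promoting complex pathway that tags cyclin B and securin for destruction. Cdc20 was at 3.25, 3.19, 3.20 and 2.90 in Cre and at 2.75, 2.64, 2.81 and 2.85 in CreTW. Cre replicate 4 sat apart from the other 3 Cre arrays and only slightly above CreTW replicate 4. The difference was -0.37 ± 0.10, 1.29-fold lower in CreTW (adjusted p 0.259 by limma). Ube2c was at 2.23, 2.25, 2.20 and 1.71 in Cre and at 1.91, 1.54, 1.79 and 1.77 in CreTW. In that gene Cre replicate 4 fell among the CreTW arrays, and the difference was -0.34 ± 0.14.

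Mki67 encodes the Ki-67 protein that coats mitotic chromosomes and is the usual histological marker of cycling cells. It was at 4.06, 4.06, 4.06 and 3.77 in Cre and at 3.70, 3.66, 3.74 and 3.64 in CreTW. Cre replicates 1 to 3 were equal to 2 decimals and Cre replicate 4 lay just above the CreTW range, for a difference of -0.30 ± 0.09. Birc5, or survivin, a subunit of the chromosomal passenger complex, was at 4.44, 4.32, 4.21 and 4.04 in Cre and at 3.92, 3.77, 4.01 and 3.97 in CreTW. Its groups were separated by a narrow gap, with a difference of -0.33 ± 0.11. Top2a, which untangles sister chromosomes, differed by -0.23 ± 0.11, with Cre replicate 4 inside the CreTW range.

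At the centromere, Cenpa is the histone variant that marks where the kinetochore forms, and Cenpe is a kinetochore motor. Cenpa was at 1.41, 1.61, 1.57 and 1.18 in Cre and at 1.09, 0.97, 1.12 and 1.02 in CreTW. Cenpe was at 2.56, 2.68, 2.72 and 2.46 in Cre and at 2.29, 2.29, 2.36 and 2.35 in CreTW. In both genes the CreTW arrays were tightly grouped below all Cre arrays, with differences of -0.39 ± 0.11 for Cenpa and -0.28 ± 0.09 for Cenpe.

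Kinases of the spindle checkpoint, which delays anaphase until chromosomes are attached, had differences from -0.33 to -0.18. Ttk, or Mps1, was at -1.21, -1.08, -1.09 and -1.38 in Cre and at -1.59, -1.45, -1.49 and -1.54 in CreTW. Its groups were separated, with Cre replicate 4 nearest to CreTW, and the difference was -0.33 ± 0.09. Bub1 was at -0.37, -0.12, -0.21 and -0.74 in Cre and at -0.70 to -0.63 in CreTW, so that Cre replicate 4 lay below all CreTW arrays (difference -0.30 ± 0.13). Bub1b differed by -0.18 ± 0.16, and there a single array, Cre replicate 3 at -0.65, stood above the rest.

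Spindle motors and assembly factors lay in the same range. Tpx2, which activates Aurora A on the spindle, was at 0.88, 1.05, 0.94 and 0.69 in Cre and at 0.67, 0.45, 0.44 and 0.63 in CreTW. The groups touched without overlapping, Cre replicate 4 being next to CreTW replicate 1, and the difference was -0.34 ± 0.11. Kif11, the motor that pushes spindle poles apart, differed by -0.35 ± 0.15, Kif20a, a motor of cytokinesis, by -0.24 ± 0.12 and Nusap1, a microtubule bundler, by -0.18 ± 0.14, all with overlapping groups. Among the 3 Aurora and polo kinases, which drive centrosome maturation and chromosome segregation, Plk1 had the largest estimate of all 36 genes and also a wide spread. Plk1 was at 2.71, 2.92, 2.70 and 2.12 in Cre and at 2.03, 1.95, 2.40 and 2.40 in CreTW. Cre replicate 4 fell between the lower and the higher CreTW arrays, and the difference of -0.42 ± 0.19 had an adjusted p of 0.478 by limma. Aurka differed by -0.29 ± 0.11 and Aurkb by -0.19 ± 0.17, with a dimmer probe of Aurkb at -0.45. Foxm1, the transcription factor that activates many G2 and mitosis genes, was at 1.42, 1.42, 1.32 and 1.03 in Cre and at 0.78, 0.96, 1.17 and 1.02 in CreTW. Its difference was -0.32 ± 0.12, and Cre replicate 4 again overlapped CreTW.

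**Figure D2:**
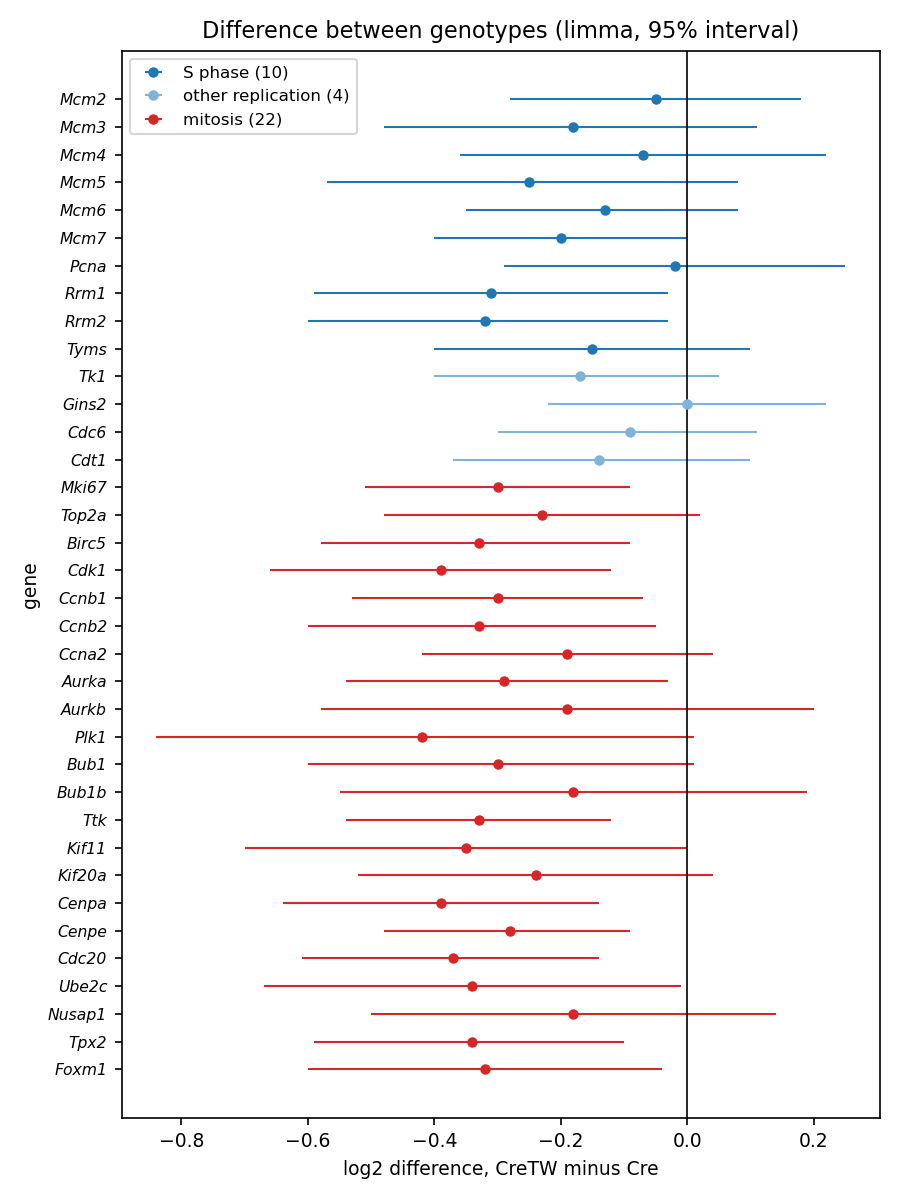
log2 difference, CreTW minus Cre, of each of the 36 genes (points) with the 95% interval of the limma fit over 4 and 4 arrays (bars), coloured by group. The 22 mitotic genes sit between -0.42 and -0.18, while the 14 replication genes spread from -0.32 to 0.00 and most of their intervals include 0.

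Replication genes lay closer to 0. The 10 S-phase genes had a median difference of -0.17 (range -0.32 to -0.02), the other 4 replication genes a median of -0.12 (range -0.17 to 0.00). The genotypes were separated in 0 of these 14 genes. That is near the share of all features, 2.81% with CreTW lower and 3.89% with CreTW higher. The 6 Mcm genes encode the ring-shaped helicase that unwinds DNA at the fork, and their differences ran from -0.25 for Mcm5 to -0.05 for Mcm2. Mcm5 was at 2.12, 2.21, 2.25 and 1.67 in Cre and at 1.98, 1.66, 1.80 and 1.80 in CreTW, a difference of -0.25 ± 0.14. Only Cre replicate 4 made its groups overlap. Mcm4 was at 2.67, 2.68, 2.91 and 2.42 in Cre and at 2.59, 2.45, 2.83 and 2.55 in CreTW, so its groups covered the same range (difference -0.07 ± 0.13). Mcm7 differed by -0.20 ± 0.09, Mcm3 by -0.18 ± 0.13 and Mcm6 by -0.13 ± 0.09. Dimmer probes of Mcm3 gave -0.22 and -0.35, and dimmer ones of Mcm7 and Mcm6 gave -0.11 each.

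Pcna, the sliding clamp that holds polymerases on DNA, was at 3.51, 3.60, 3.78 and 3.32 in Cre and at 3.59, 3.40, 3.68 and 3.44 in CreTW. The CreTW arrays lay inside the Cre range, and the difference of -0.02 ± 0.12 had a 95% interval from -0.29 to 0.25, whose lower end lay just above the median difference of the mitotic genes. Cdc6 and Cdt1 load the Mcm ring onto origins, and Gins2 is part of the active helicase. Cdt1 differed by -0.14 ± 0.10, Cdc6 by -0.09 ± 0.09 and Gins2 by 0.00 ± 0.10, all with overlapping groups. A dimmer probe of Cdc6 gave -0.52, and a dimmer one of Gins2 gave 0.05.

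The lowest replication estimates were those of Rrm1 and Rrm2, which encode the 2 subunits of ribonucleotide reductase, which makes deoxynucleotides. Rrm1 was at 2.14, 2.11, 2.12 and 1.74 in Cre and at 1.77, 1.53, 1.66 and 1.89 in CreTW. Rrm2 was at 3.46, 3.26, 3.48 and 3.11 in Cre and at 3.10, 2.76, 3.19 and 2.99 in CreTW. In both genes Cre replicates 1 to 3 were above all CreTW arrays and Cre replicate 4 was within them. Their differences, -0.31 ± 0.12 and -0.32 ± 0.13, were the only 2 of the 14 with an unadjusted p under 0.05 (adjusted p by limma 0.428 and 0.430). Thymidylate synthase (Tyms) differed by -0.15 ± 0.11 and thymidine kinase (Tk1) by -0.17 ± 0.10, both with overlapping groups. A further probe of Tk1, nearly as bright, gave -0.29.

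The offset between the S-phase and mitotic sets separated the genotypes even though neither set did. For each array, the centred levels (each gene minus its mean over 8 arrays) were averaged over a set. The mitotic mean was 0.16, 0.26, 0.28 and -0.10 in Cre replicates 1 to 4 and -0.14, -0.25, -0.09 and -0.12 in CreTW replicates 1 to 4. The S-phase mean was 0.13, 0.11, 0.23 and -0.14 in Cre and -0.02, -0.24, 0.01 and -0.09 in CreTW. In both sets Cre replicate 4 lay among the CreTW arrays. The S-phase minus mitotic mean was -0.03, -0.14, -0.05 and -0.04 in Cre (mean -0.07, SD 0.05) and 0.12, 0.01, 0.10 and 0.03 in CreTW (mean 0.07, SD 0.05). On this measure Cre replicate 4 lay with the other Cre arrays and the genotypes did not overlap, with a difference of 0.13. The difference was 0.14 without Cre replicate 4 and 0.15 when all 14 replication genes were used. No p is given for it, because the gene sets were chosen with results of these arrays known. The further lists described below did not repeat this offset. Their mean centred level differed by -0.16 over 43 other replication genes and by -0.17 over 64 other mitotic genes. Every CreTW array lay below every Cre array in 7 of those 43 and 7 of those 64 genes (2.81% of all features).

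**Figure D3:**
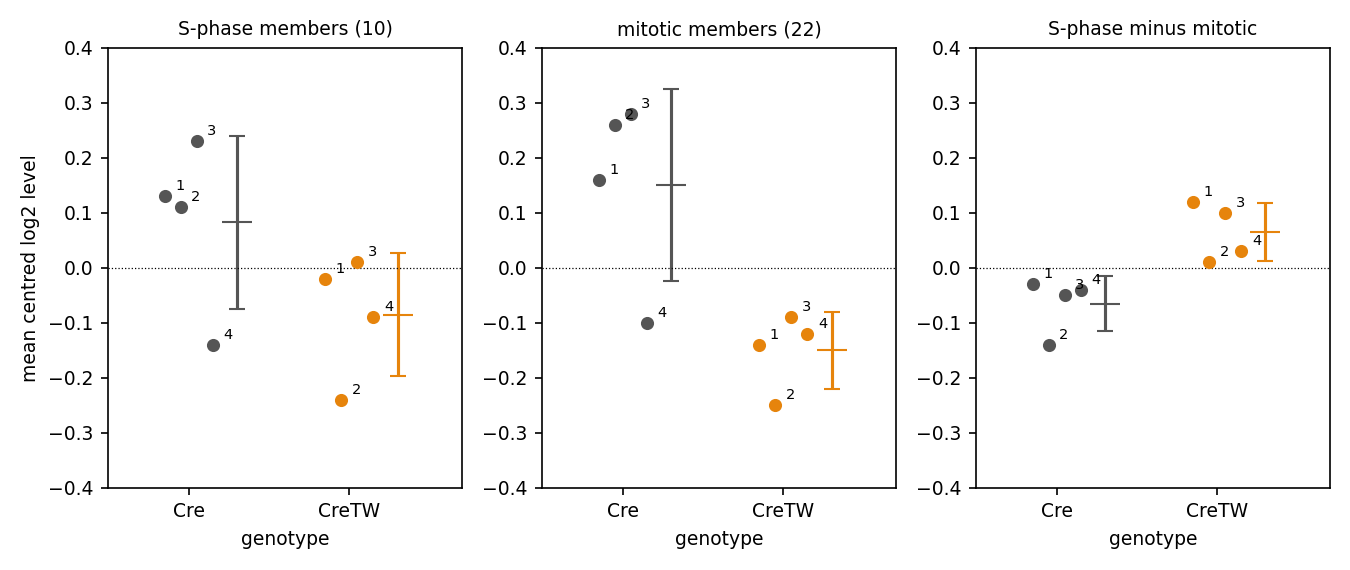
Mean centred log2 level per array (points, numbered by replicate) of the 10 S-phase genes, the 22 mitotic genes and the S-phase minus mitotic offset, with the mean and SD of each genotype (bars, n = 4). Cre replicate 4 lies among the CreTW arrays in the first pair of panels, while in the third every CreTW array (0.01 to 0.12) is above every Cre array (-0.14 to -0.03).

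The 2 sets also differ in promoter letters. The genes were not chosen by these letters, but the words searched are known from genes of these kinds, so the difference is not independent support. As background, promoters of G2 and mitosis genes often pair CCAAT boxes, bound by NF-Y, with a cell cycle homology region (CHR), bound by complexes that repress in quiescent cells and activate in G2, whereas genes of the G1 to S transition often carry sites for E2F factors. RefSeq promoter windows on GRCm38.p6, from 250 bases before to 50 after the start, were matched by symbol for 29 of the 36 genes (30 windows). Both strands were searched for CCAAT, for the CHR letters TTTGAA and for 3 E2F words, TTTGGCGC, TTTCGCGC and TTTCCCGC, and overlapping matches were counted each. The CHR was in 12 of 17 mitotic windows (70.6%) and 1 of 13 replication windows (7.69%), against 17.9% of all 32851 windows. An E2F word was in 1 of 17 mitotic windows (5.88%) and 6 of 13 replication windows (46.2%), against 1.84% of all. CCAAT was in 88.2% of mitotic and 69.2% of replication windows, against 37.4% of all, and all 12 mitotic windows with a CHR also held CCAAT. These are matches of letters and not mapped binding sites.

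These 6 promoters, picked to show both kinds of motif, are given each as the 200 bases just before the start, 5′ to 3′ on the gene's strand, with matches to any of these motifs (on either strand) in capitals. Cdk1 (chr10:69352913-69353112, minus strand) and Cdc20 (chr4:118437344-118437543, minus strand) are from the separated mitotic genes, as is Mki67 (chr7:135716380-135716579, minus strand), and Ube2c (chr2:164769729-164769928, plus strand) is their anaphase partner. Mcm5 (chr8:75109309-75109508, plus strand) and Mcm6 (chr1:128359706-128359905, minus strand) stand for the replication genes.
Cdk1 promoter: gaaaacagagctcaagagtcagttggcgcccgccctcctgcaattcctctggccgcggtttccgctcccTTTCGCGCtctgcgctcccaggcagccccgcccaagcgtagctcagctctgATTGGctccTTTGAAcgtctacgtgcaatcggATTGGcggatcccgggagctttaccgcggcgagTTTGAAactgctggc
Cdc20 promoter: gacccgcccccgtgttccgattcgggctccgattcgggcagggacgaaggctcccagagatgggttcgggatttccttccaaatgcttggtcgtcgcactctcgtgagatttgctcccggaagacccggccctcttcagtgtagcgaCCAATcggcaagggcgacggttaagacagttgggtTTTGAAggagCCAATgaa
Mki67 promoter: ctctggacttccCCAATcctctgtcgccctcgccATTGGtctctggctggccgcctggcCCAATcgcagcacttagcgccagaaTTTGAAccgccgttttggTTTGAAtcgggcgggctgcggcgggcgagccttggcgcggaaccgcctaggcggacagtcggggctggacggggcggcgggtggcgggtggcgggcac
Ube2c promoter: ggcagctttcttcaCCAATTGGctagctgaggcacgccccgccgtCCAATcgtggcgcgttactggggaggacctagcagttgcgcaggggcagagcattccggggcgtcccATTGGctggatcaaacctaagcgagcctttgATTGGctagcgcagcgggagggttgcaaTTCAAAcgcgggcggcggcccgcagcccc
Mcm5 promoter: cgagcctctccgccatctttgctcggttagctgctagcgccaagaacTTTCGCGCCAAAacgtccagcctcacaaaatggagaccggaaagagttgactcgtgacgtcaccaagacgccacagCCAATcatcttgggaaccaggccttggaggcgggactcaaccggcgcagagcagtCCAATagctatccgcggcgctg
Mcm6 promoter: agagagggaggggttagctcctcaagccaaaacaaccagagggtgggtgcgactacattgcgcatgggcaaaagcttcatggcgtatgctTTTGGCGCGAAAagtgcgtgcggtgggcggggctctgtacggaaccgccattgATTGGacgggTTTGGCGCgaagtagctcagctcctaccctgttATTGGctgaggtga

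In the mitotic promoters the CHR letters TTTGAA (or TTCAAA on the other strand) stand between or after CCAAT boxes (ATTGG on the other strand). For Cdc20 the CHR begins 18 bases before the start, with CCAAT boxes beginning at 53 and 8 bases before it. Cdk1 holds 2 CHR matches, beginning 71 and 15 bases before the start, and its window is the 1 of 17 mitotic windows searched that also has an E2F word, TTTCGCGC. In Mcm5 and Mcm6 a pair of E2F words overlaps on opposite strands, and neither window has a CHR. Both sets held exceptions. The windows of Birc5 (-0.33), Ccnb1 (-0.30), Bub1 (-0.30), Cenpe (-0.28) and Nusap1 (-0.18) held no CHR, and the 1 replication window that did was that of Mcm2 (-0.05). Rrm1 (-0.31) and Rrm2 (-0.32), the replication genes with the lowest estimates, had no E2F word.

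The wider machinery was looked at through 4 further lists of replication, mitosis and cell cycle control genes. No member of these lists passed the test by limma with Benjamini-Hochberg adjustment. Other replication genes (43 of 44 measured) had a median difference of -0.12, with 34 negative and 9 positive (51.6% of all features were negative) and 8 with an unadjusted p under 0.05, all lower (4.8% of all features). Those with the highest mean signal were Gins3 at 0.14 ± 0.07, Rpa1 at -0.01 ± 0.09, the clamp loader subunit Rfc2 at -0.20 ± 0.08 and DNA ligase 1 (Lig1) at -0.27 ± 0.09, with a dimmer probe of Lig1 at -0.05. Fen1 and Orc1 were picked out after their values were seen. The flap nuclease Fen1 was at 2.60, 2.79, 2.81 and 2.46 in Cre and at 2.15, 2.10, 2.29 and 2.25 in CreTW, a difference of -0.46 ± 0.10 (adjusted p 0.181 by limma). All CreTW arrays of Fen1 were below all Cre arrays, Cre replicate 4 included. The same separation held for Orc1, a subunit of the origin recognition complex (-0.51 ± 0.13).

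Other mitotic genes (64 of 65 measured) had a median difference of -0.17, with 59 negative (51.6% of all features) and 17 with an unadjusted p under 0.05 in the lower direction (4.8% of all features) and 1 in the higher. Incenp, the scaffold of the chromosomal passenger complex, differed by -0.36 ± 0.11, the condensin subunit Ncapd2 by -0.22 ± 0.09, the kinetochore protein Spc25 by -0.15 ± 0.07 and the checkpoint protein Bub3 by -0.13 ± 0.08. Cdca5, or sororin, which protects sister chromatid cohesion and was picked out after its values were seen, was at 1.96, 2.01, 1.90 and 1.78 in Cre and at 1.42, 1.48, 1.51 and 1.69 in CreTW. Its groups did not overlap (difference -0.39 ± 0.09).

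Regulators of the G1 to S step (29 of 30 measured) were centred nearer to 0, with a median of -0.05 and 19 negative (51.6% of all features). An unadjusted p under 0.05 by limma was reached by 4 in the lower direction (4.8% of all features) and by 1 in the higher. Ccnd2, a D-type cyclin that couples growth signals to cell cycle entry, was at 6.37, 6.07, 5.98 and 6.34 in Cre and at 6.55, 6.52, 6.37 and 6.57 in CreTW. It was the 1 gene of this list with every CreTW array above every Cre array, by less than the second decimal, where 3.89% of all features were, with a difference of 0.32 ± 0.11 (adjusted p 0.375 by limma). The other D-type cyclins were at 0.14 ± 0.10 (Ccnd1) and 0.08 ± 0.09 (Ccnd3), their partner Cdk4 at -0.04 ± 0.08, cyclin E1 (Ccne1) at 0.03 ± 0.09 and Myc at -0.12 ± 0.19. The signs of Ccne1, Cdk4 and Myc turned in some alternative fits. E2f1, which activates replication genes, was at 1.15, 1.15, 1.06 and 0.94 in Cre and at 0.92, 0.85, 0.68 and 0.81 in CreTW, a difference of -0.26 ± 0.09 with groups that did not overlap. Mybl2, which acts with the CHR-binding complex in G2, was also separated (-0.29 ± 0.09). E2f1 and Mybl2 were the 2 genes of this list with every CreTW array below every Cre array, where 2.81% of all features were.

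Inhibitors and checkpoint genes (20 of 21 measured) had a median of -0.03, with 11 negative and 9 positive, near the share over all features (51.6% negative). An unadjusted p under 0.05 by limma was reached by 1 in the lower direction (4.8% of all features) and by 1 in the higher. The CIP/KIP inhibitors of cyclin-dependent kinases were at -0.29 ± 0.24 (Cdkn1c), 0.10 ± 0.14 (Cdkn1a, or p21) and 0.04 ± 0.09 (Cdkn1b, or p27), and all 3 changed sign in at least 1 alternative fit. Cdkn2c differed by -0.12 ± 0.08, Btg1 by -0.10 ± 0.09 and Gadd45g by -0.20 ± 0.13, with a dimmer probe of Btg1 at -0.39. Gadd45a, a stress-induced gene whose product binds Cdk1 and Pcna, was picked out after its values were seen. It was at -0.56, -0.54, -0.21 and -0.41 in Cre and at 0.39, 0.01, 0.38 and 0.23 in CreTW. Every CreTW array was above every Cre array, with a difference of 0.68 ± 0.12, 1.60-fold higher in CreTW, and an adjusted p of 0.0822 by limma. It passed the threshold in 3 of 27 alternative fits (adjusted p by limma 0.037 to 0.805 over all of them).

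**Figure D4:**
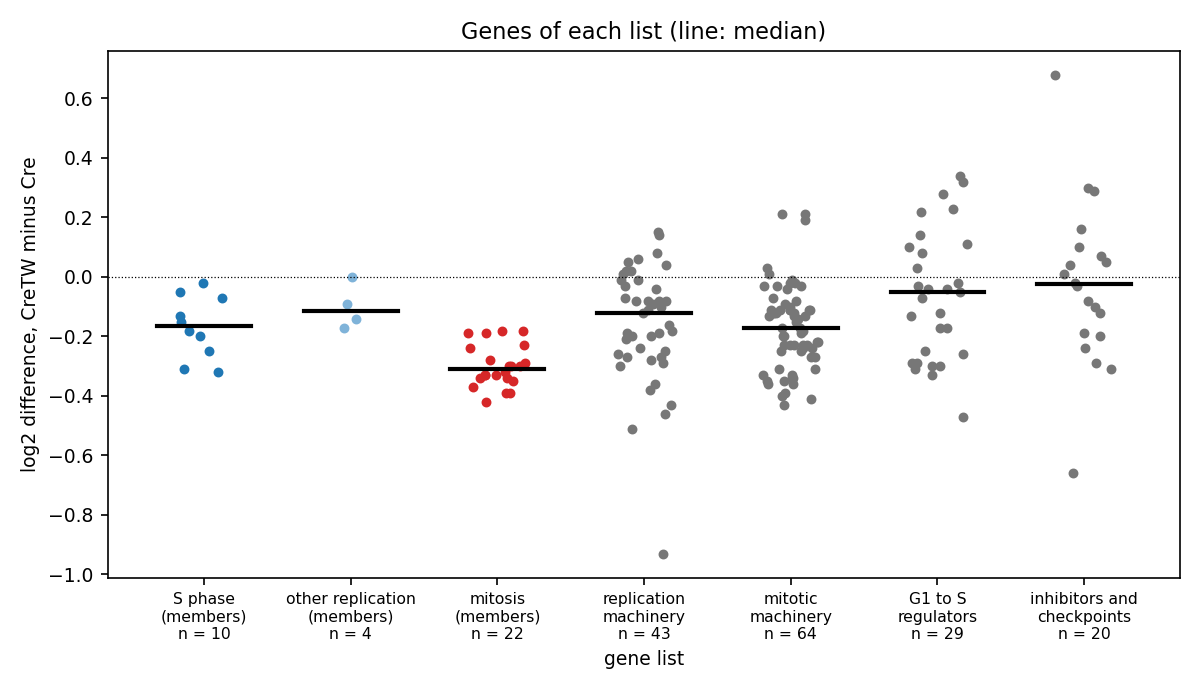
log2 difference, CreTW minus Cre, of each gene (points) of the 3 member groups (coloured) and of 4 further lists (grey), with the list's median (line). Medians lie at -0.31 for the mitotic members, -0.17 for other mitotic genes, -0.12 for other replication genes, -0.05 for G1 to S regulators and -0.03 for inhibitors and checkpoint genes, whose highest point is Gadd45a at 0.68.

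Markers of blood cells and osteoclasts varied over the arrays in nearly the same order as the cell cycle genes. The mean centred level of all 36 genes was 0.15, 0.20, 0.24 and -0.11 in Cre replicates 1 to 4 and -0.10, -0.24, -0.05 and -0.10 in CreTW replicates 1 to 4. That of 5 measured markers shared by all blood cells (Ptprc, Laptm5, Coro1a, Cd52 and Rac2, of 6 listed) was 0.83, 0.54, 0.93 and -0.78 in Cre and -0.33, -1.20, 0.07 and -0.08 in CreTW. On both measures Cre replicates 1 to 3 were the 3 highest arrays and CreTW replicate 2 and Cre replicate 4 the lowest pair. Osteoclast markers (9 of 10 measured, among them Acp5, Ctsk and Mmp9) were at 0.68, 0.76, 0.57 and -0.54 in Cre and at -0.56, -1.27, 0.34 and 0.02 in CreTW, again with Cre replicate 4 far below the other Cre arrays. These marker sets had median differences of -0.81 and -0.83, and 0 of their genes passed the test.

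Marrow lineage markers had other orders over the arrays. Erythroid markers (9 of 17 measured, with Klf1 and Gata1 among those that did not pass the filter) were at 0.50, 0.37, 0.48 and -0.27 in Cre and at 0.29, -0.15, -0.44 and -0.78 in CreTW, so the lowest array was CreTW replicate 4 and not CreTW replicate 2. Marrow myeloid markers (12 of 16 measured) ranged from -1.84 in Cre replicate 4 to 2.19 in Cre replicate 3, and B-lineage markers (10 of 14 measured) from -0.92 in CreTW replicate 4 to 1.36 in Cre replicate 3. Skeletal muscle markers (17 of 17 measured) had by far the largest shift, with a median difference of 3.96 and 17 positive (51.6% of all features were negative). By limma, 14 of these markers had an unadjusted p under 0.05 (10.7% of all features, in either direction). Past the adjusted threshold were 0 (0.346% of all features). Their score was -2.16, -2.97, 0.36 and -2.27 in Cre and -1.30, 3.46, 2.95 and 1.94 in CreTW, so Cre replicate 3, the highest array for the cell cycle genes, was also the highest Cre array for muscle. Cartilage markers (11 of 11 measured) were highest in Cre replicate 4, at 0.65, and otherwise between -0.40 and 0.18. Median differences were -0.26 for 7 osteoblast markers, 0.35 for 10 fibroblast and tendon markers and -0.13 for 6 endothelial markers. The fibroblast and tendon score was 0.01, -0.73, -0.33 and -0.07 in Cre and 0.11, 0.37, 0.39 and 0.25 in CreTW. Every CreTW array was thus above every Cre array, as in 4 of the 10 single genes (3.89% of all features). No fit used that score as a covariate. What part these other cells had in the cell cycle values was not tested beyond the fits that follow.

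**Figure D5:**
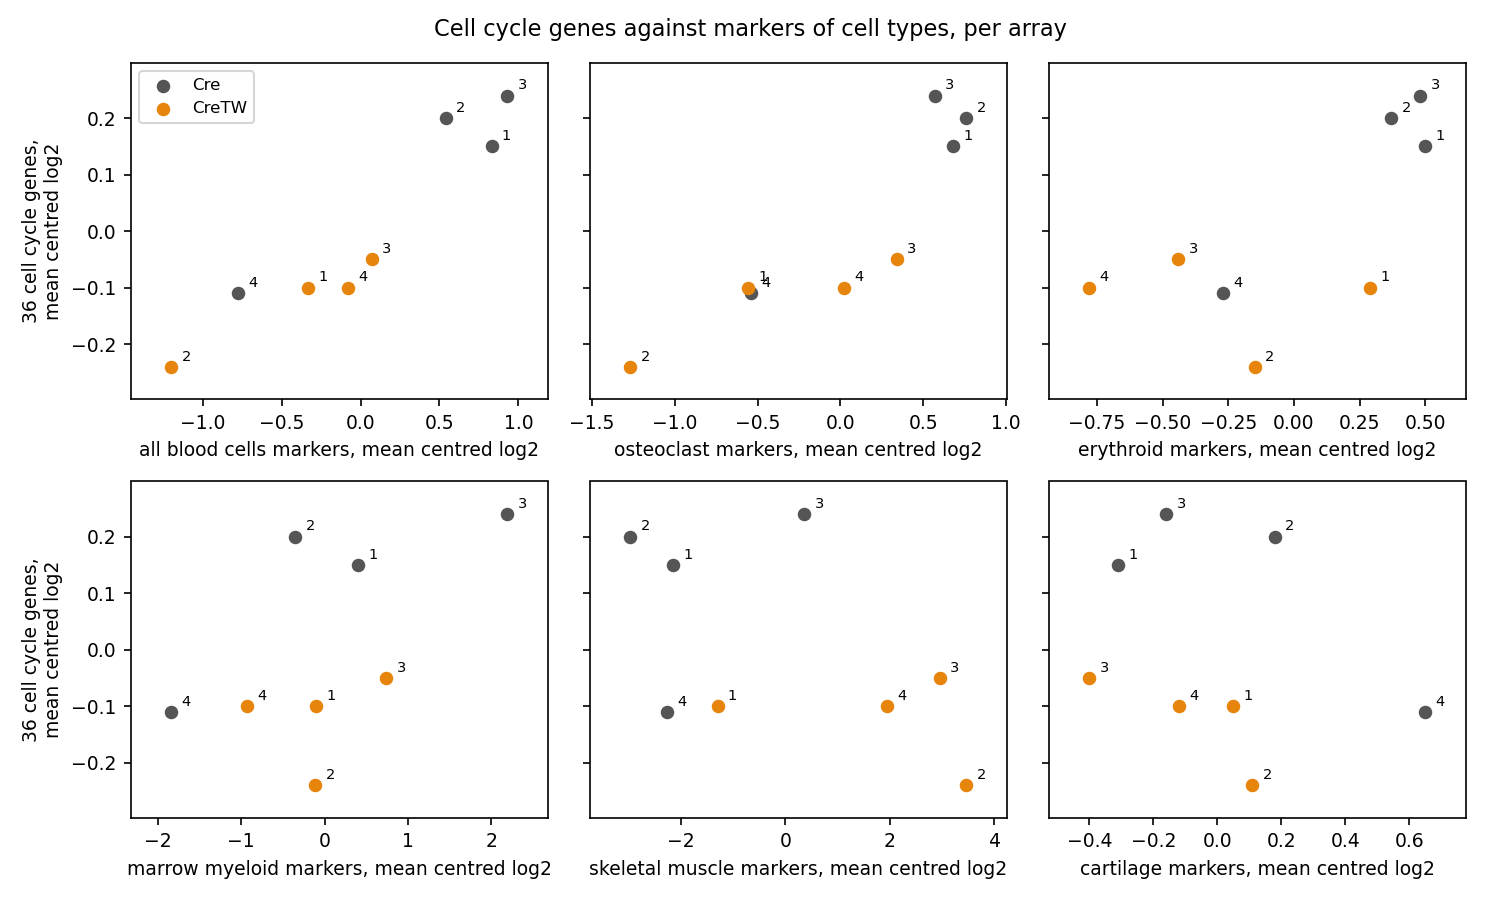
Mean centred log2 level of the 36 cell cycle genes (vertical axis) against that of 6 sets of cell type markers (horizontal axes) on each of the 8 arrays, numbered by replicate. Cre replicates 1 to 3 are at the upper right for blood cell and osteoclast markers, with Cre replicate 4 at -0.78 and -0.54 beside the CreTW arrays, and muscle markers run from -2.97 to 3.46.

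Fits with a marker score as a covariate gave the size of the genotype difference at equal marker level. With the score of all blood cells, added after the data were seen, the median over the 36 genes was -0.13 with 30 negative (53.0% of all features negative), and with the osteoclast score it was -0.14 with 29 negative (52.3%). It was -0.17 with the erythroid score (33 negative, 52.4%), -0.22 with the B-lineage score (34 negative, 54.5%), -0.25 with the myeloid score (36 negative, 52.6%) and -0.26 with the muscle score (35 negative, 42.1%). In the blood cell fit the mitotic median was -0.18 (21 of 22 negative) and the S-phase median -0.03 (6 of 10 negative). Members lower in CreTW at an unadjusted p under 0.05, 16 without a covariate, numbered 5 with the blood cell score (6.74% of all features), 5 with the osteoclast score (5.96%), 1 with the erythroid score (2.95%), 17 with the myeloid score (6.12%), 9 with the B-lineage score (5.92%) and 5 with the muscle score (1.6%). Mcm2, Mcm3, Mcm4, Pcna, Gins2 and Nusap1 had estimates above 0 in both the blood cell and the osteoclast fit. The S-phase minus mitotic difference was 0.14 with the blood cell score, 0.13 with the osteoclast score, 0.15 with the erythroid score and 0.16 with the muscle score, against 0.13 without a covariate. With 8 arrays, each such fit estimates the genotype difference and the marker slope from the same few values.

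The 8 arrays lay in 2 rows of 1 slide, with 2 arrays of each genotype in each row. Within row 1 (replicates 1 and 2) the median difference over the 36 genes was -0.37 with 35 negative, and within row 2 (replicates 3 and 4, the row of Cre replicate 4) it was -0.15 with 29 negative. Mitotic genes were negative in 21 of 22 within each row, at medians of -0.39 and -0.21. S-phase genes were negative in 10 of 10 in row 1 and in 5 of 10 in row 2, at medians of -0.25 and -0.07. The S-phase minus mitotic difference was 0.15 in row 1 and 0.11 in row 2. Over all features the median difference was 0.002 in row 1 and -0.003 in row 2. The share of all features that were negative within a row was not computed.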

How the data were processed

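Total RNA (100 ng per array) of growth plate cartilage from 4 Cre and 4 CreTW mice was hybridised to 1-colour Agilent 8x60K arrays, per the labels. Per the file headers, the deposited intensity of each spot is background-subtracted and comes from Feature Extraction 11.5.1.1 (Agilent). The authors' deposited log2 table, made with GeneSpring 14.9 per the labels, equals the log2 processed intensity minus a constant per array, which differs from the log2 75th percentile by -0.0056 to -0.0030.

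Here spots of a probe were averaged without flagged outliers, taken to log2 and scaled to the array's 75th percentile. Probes well above background on 4 or more arrays were kept. Of 56605 probes, 32994 matched 1 symbol through RefSeq transcripts and 23611 none. The brightest probe stood for a gene. Genotypes were compared with limma 3.58.1 (lmFit, eBayes) in R 4.3.3, with 6 residual and 2.52 prior degrees of freedom, Benjamini-Hochberg adjustment and a threshold of 0.05, after a test on simulated data. Each array is 1 mouse.

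The 36 genes, the 4 further gene lists, the 10 marker lists and the E2F, CHR and CCAAT words were chosen with earlier results of these data known. Named genes are all 36, the 4 brightest of each further list, a set of regulators (Cdkn1a, Cdkn1b, Cdkn1c, Cdkn2c, Ccnd1, Ccnd2, Ccnd3, Ccne1, E2f1, Myc, Mybl2) and others said to be picked after their values were seen. The 27 alternatives changed the scaling, background correction (normexp with an offset of 50 on the median signal, since a mean signal was not analysed here), filter, probe rule, blocks, weights, covariates, slide row or arrays used. No spot was saturated, and the number of arrays limits the precision.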

Additional observations from a re-analysis of the deposited data

Results flagged for a closer look

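Cre replicate 4 lay far below the other 3 Cre arrays, by Dixon's criterion for 4 values, in 6 of the 36 genes. It was at 3.77 for Mki67 (others 4.06 to 4.06), 2.26 for Top2a (others 2.62 to 2.66), 2.18 for Ccna2 (others 2.47 to 2.51), 2.90 for Cdc20 (others 3.19 to 3.25), 1.71 for Ube2c (others 2.20 to 2.25) and 1.74 for Rrm1 (others 2.11 to 2.14). In all, 80 groups of 4 values were looked at, and chance marks about 1 in 20 such groups if they are independent. The groups were not independent, since the genes were measured on the same mice. That share therefore cannot decide whether 6 of 80 is a chance count. All 6 were groups of Cre arrays and pointed to the same array and direction. Cre replicate 4 was the lowest of the 4 Cre arrays in 32 of 36 genes, against 24.9% of all features. The blood cell score of that array was -0.78 and its osteoclast score -0.54, while the other Cre arrays were between 0.54 and 0.93 and between 0.57 and 0.76.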

How the results depend on the processing

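Under all 27 alternatives 0 of 36 genes passed the test by limma (lowest adjusted p 0.0982, with array weights), and the S-phase minus mitotic difference stayed between 0.09 and 0.16. The median over the 36 genes ran from -0.35 to -0.21 without single arrays and moved by more than the spread between arrays with the osteoclast score (-0.14) and the blood cell score (-0.13) as covariates. In all, 8 of the 36 genes turned at least once to the other sign, 20 of 22 mitotic genes never did, and 935 of 972 single-gene estimates kept their direction. Deviations of same-numbered arrays correlated at -0.01, -0.10, 0.31 and -0.03, within the range of differently numbered pairs (-0.50 to 0.40). These few values show no pairing by replicate number but cannot exclude one. With the replicate number as a block, 0 of 36 genes passed (lowest adjusted p by limma 0.392), the median was -0.27, and 12 features were called in all, against 80 without it.

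Some estimates that turned sign had been well away from 0 in the main fit, as for Cdkn1c (-0.29), Gadd45g (-0.20) and Bub1b (-0.18). The estimates that turned sign were at most 0.13 in size after turning. With the blood cell score these were Gins2 (0.06), Mcm2 (0.07), Mcm3 (0.02), Mcm4 (0.10), Pcna (0.12), Nusap1 (0.02), Rpa1 (0.06), Myc (0.06), Cdkn1a (-0.03) and Cdkn1b (-0.04). With the osteoclast score they were Gins2 (0.08), Mcm2 (0.07), Mcm3 (0.01), Mcm4 (0.09), Pcna (0.10), Tyms (0.00), Nusap1 (0.03), Rpa1 (0.07), Myc (0.06) and Cdkn1b (-0.01). With the erythroid score they were Mcm2 (0.01), Mcm4 (0.01), Pcna (0.08), Rpa1 (0.03), Cdk4 (0.00) and Cdkn1b (-0.06), and with the B-lineage score Mcm4 (0.03), Pcna (0.06), Rpa1 (0.03) and Cdkn1a (-0.01). The muscle score turned Gins2 (0.13), Ccne1 (-0.04), Cdk4 (0.02), Cdkn1b (0.00) and Gadd45g (0.09). In slide row 1 alone Bub1b (0.12), Ccne1 (-0.05) and Cdkn1c (0.13) turned, and in row 2 alone Gins2 (0.09), Mcm2 (0.04), Mcm3 (0.00), Mcm4 (0.02), Pcna (0.01), Tyms (0.05), Nusap1 (0.04) and Rpa1 (0.06). Gins2 was at 0.02 with normexp, 0.02 as the mean of its probes and 0.03 with array weights, where Ccne1 was at -0.02. Without single arrays, Mcm4 ranged from -0.15 to 0.02, Mcm2 from -0.10 to 0.01, Pcna from -0.10 to 0.05, Gins2 from -0.04 to 0.07, Rpa1 from -0.07 to 0.02, Myc from -0.24 to 0.02, Cdkn1a from -0.02 to 0.19, Cdkn1b from 0.00 to 0.10 and Ccne1 from -0.03 to 0.07. The cause of these turns was not tested. Normexp was run on the median signal.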

Other observations

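A few cell cycle genes outside the rule for named genes had larger estimates than any of the 36, and were picked out after their values were seen. Cdkn2a, the locus of the p16 and ARF inhibitors, was at -1.50, -0.86, -1.87 and -2.03 in Cre replicates 1 to 4 and at -1.90, -2.83, -1.82 and -2.39 in CreTW replicates 1 to 4, a difference of -0.66 ± 0.30 with overlapping groups and 7 of 8 arrays well above background. Skp2, part of the ligase that degrades p27, was at -0.61, -0.29, -0.29 and -0.70 in Cre and at -0.96, -1.24, -0.62 and -0.96 in CreTW, a difference of -0.47 ± 0.16 (adjusted p by limma 0.338). Zwilch, a kinetochore checkpoint protein, was at -0.01, 0.20, 0.32 and -0.12 in Cre and at -0.35, -0.39, -0.32 and -0.26 in CreTW, with no overlap and a difference of -0.43 ± 0.11 (adjusted p by limma 0.230). Cdc45, a helicase subunit, had the lowest estimate of these lists, -0.93 ± 0.45, but was well above background on 4 of 8 arrays and its values overlapped.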
